A study of Mus musculus with 15 samples.

Results

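Lung eosinophils that lacked surface CD11c after an airway papain challenge were compared with lung eosinophils of untreated mice. The comparison rests on 4 of the 15 RNA sequencing libraries of the study, chosen by their labels: 2 libraries of naive eosinophils and 2 of papain CD11c- eosinophils. All mice were C57BL6/J and the tissue was lung. The papain group had received 50 ug of papain per mouse intranasally over 3 days, and the naive group had received no treatment; ages are not stated in the labels. Per the labels' protocols, eosinophils of both groups were SiglecF+ cells with low Gr1 and no autofluorescence, sorted by flow cytometry. Only the papain cells are labelled by CD11c gate, so the naive libraries are not stated to be CD11c-. A further 2 libraries of papain CD11c+ eosinophils, and 2 naive and 2 papain libraries of natural helper cells (innate lymphocytes of type 2 immunity, sorted as lineage-negative cells that carry Thy1.2, CD25 and the alpha chain of the IL-7 receptor), serve below as points of reference. The study also holds basophil libraries and 1 natural helper cell library labelled 3'UTRKO. The basophil libraries entered the shared estimate of the spread, to which the 3'UTRKO library, alone in its group, has no replicate to add. All of them counted in the filter that set which genes were tested. Nothing in the labels says whether replicate libraries came from separate animals, so p-values measure the spread between these libraries, which may be technical.

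Eosinophils are granulocytes that mature in the bone marrow under interleukin-5 and carry granules of cationic proteins such as major basic protein and eosinophil peroxidase. Papain, a cysteine protease of papaya, works as an inhaled allergen: damaged epithelium releases alarmins, natural helper cells answer with interleukin-5 and interleukin-13, and eosinophils enter the lung. Lung eosinophils of healthy and of inflamed airways are known to differ in surface proteins such as CD11c, SiglecF and CD101.

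Values are FPKM (fragments counted per length of transcript and per number of mapped fragments), deposited as whole numbers, so the read depth behind a value is unknown. In the 4 libraries the FPKM values summed to between 374841 and 411415. Genes above 0 numbered 9995 and 10486 in the naive libraries and 12007 and 11873 in the CD11c- libraries. All 12 eosinophil markers of the list used here were detected in each group. Prg2, which encodes major basic protein, stood at 86 and 1519 FPKM in the naive libraries and at 273 and 343 FPKM in the CD11c- libraries. Ear6, an eosinophil-associated ribonuclease, stood at 91 and 333 FPKM in naive and at 228 and 162 FPKM in CD11c- libraries. Siglece, an inhibitory lectin receptor, stood at 67 and 121 FPKM in naive and at 74 and 70 FPKM in CD11c- libraries. In each of these 3 genes the groups overlapped, and naive library 2 was the highest of the 4. The gene of SiglecF, the sorted protein (listed as Siglec5), had 63 and 66 FPKM in naive and 91 and 102 FPKM in CD11c- libraries. Epx, the gene of eosinophil peroxidase, was listed at 0 in naive library 1 and CD11c- library 2 and at 72 and 5 FPKM in the other two. Itgax, which encodes CD11c itself, stood at 87 and 112 FPKM in naive, 109 and 185 FPKM in CD11c- and 186 and 165 FPKM in CD11c+ libraries, so the transcript did not separate the gates. Of the transcripts used as neutrophil markers, S100a8, S100a9 and Retnlg were abundant in all 4 libraries. S100a8 was at 1417 and 560 FPKM in naive and 1039 and 1677 FPKM in CD11c- libraries. Other neutrophil markers were less abundant, and not all of them were low. Mmp9 was at 86 and 61 FPKM in naive and 39 and 36 FPKM in CD11c- libraries. Lcn2 was at 39 and 21 against 59 and 55 FPKM, and Mmp8 at 3 and 2 against 2 and 5 FPKM. Naive library 2 stood apart by some granule genes of immature granulocytes and some dendritic cell genes. Ngp, a neutrophil granule protein, was at 2 and 119 FPKM in the naive libraries, and Ccl22, a chemokine of dendritic cells and macrophages, at 6 and 189 FPKM. Other members did not set naive library 2 apart. Ltf was at 8 FPKM there and 84 FPKM in CD11c- library 1, and Ccr7 at 70 FPKM there and 76 FPKM in CD11c- library 2. CD11c- library 2 carried more lymphocyte transcripts than CD11c- library 1, with Cd3g of the T cell receptor complex at 28 FPKM against 6 FPKM.

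After papain, CD11c- eosinophil libraries gained transcripts of extracellular matrix and of the chemokines Ccl2, Ccl7 and Cxcl1, together with Sftpa1, Sftpb, Lif, Il5, Cd200r1, Socs2 and Xbp1. They lost transcripts of Slc2a6, Kit, Ltb, Igsf6, Il16, Itgb7, Stat6 and H2-D1. In limma, with p-values adjusted by Benjamini and Hochberg over all 14257 genes tested and called below 0.05, 267 genes rose and 53 fell. These are 1.87% and 0.372% of the genes tested, 2.24% together, and 2063 genes had an unadjusted p below the same threshold. Counts of called list members below are to be read beside these shares. Differences are given on the log2(FPKM + 1) scale with their standard errors (SE), which understates the change of low genes. On this scale the median of all genes tested lay at 0.21, and median-ratio scaling of the libraries moved it to 0.01 and the calls to 261 higher and 97 lower. Of the rises, 223 had 2 FPKM or less in both naive libraries and 149 were listed at 0 in both. In the CD11c- libraries the mean of 28 rises was still under 2 FPKM, and that of 184 was 5 FPKM or more. Of the falls, 43 started from 10 FPKM or more in both naive libraries. The rises had a median of 2.58 and the falls a median of -1.25. Where groups are said below not to overlap, the share of all genes that do so was not counted.

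**Figure D1:**
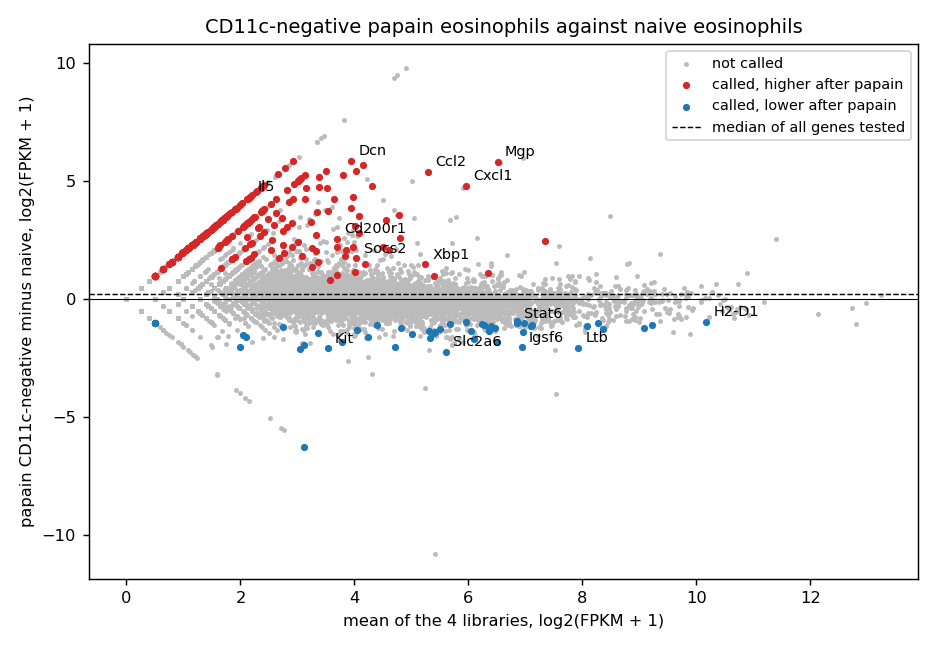
Each point is 1 of the 14257 genes tested, by its mean over the 4 libraries (horizontal) and its difference between groups (vertical), both in log2(FPKM + 1). Called rises (red) lie mostly at low means, many on the diagonal edge of genes listed at 0 in both naive libraries, and called falls (blue) spread over higher means; the dashed line is the median of all genes, 0.21.

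Rises from a level already high in naive cells were few. Only 4 of the 267 had 10 FPKM or more in both naive libraries. Gsn, the actin-severing protein gelsolin, stood at 74 and 63 FPKM in naive and at 373 and 392 FPKM in CD11c- libraries, a log2 change of 2.47 ± 0.38 (SE, adjusted p = 0.0137). Xbp1, a transcription factor of the secretory pathway that eosinophil maturation requires, stood at 18 and 26 FPKM in naive and at 67 and 58 FPKM in CD11c- libraries (1.48 ± 0.23, adjusted p = 0.013). Neither gene's groups overlapped. The others were Ifrd1, at 57 and 51 against 126 and 111 FPKM, and Uap1, an enzyme that makes UDP-N-acetylglucosamine, at 27 and 31 against 60 and 56 FPKM. Gsn, Ifrd1 and Uap1 were picked out after their values were seen. Without naive library 1, CD11c- library 1 or CD11c- library 2 the call of Xbp1 was lost (adjusted p up to 0.119).

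The calls of single genes depended on all 4 libraries. Of the 61 called genes named by the rule used here, 51 lost their call without naive library 1, 38 without naive library 2, 48 without CD11c- library 1 and 35 without CD11c- library 2. The 8 that kept it without any one of the 4 were Dcn, Sparc, Ccl7, Clec3b, Cd34, Lif, Cd200r1 and Naaladl1. No direction of a called gene changed.

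Among the largest rises were genes of extracellular matrix. Dcn, which encodes the collagen-binding proteoglycan decorin, was at 1 FPKM in both naive libraries and at 137 and 99 FPKM in CD11c- libraries (5.88 ± 0.55, adjusted p = 0.00294). Mgp, an inhibitor of matrix calcification, was at 6 and 20 FPKM in naive and at 724 and 654 FPKM in CD11c- libraries (5.83 ± 1.05, adjusted p = 0.0267). Sparc, a secreted collagen-binding protein, was at 1 and 2 FPKM in naive and at 141 and 80 FPKM in CD11c- libraries (5.45 ± 0.52, adjusted p = 0.00294). In all 3 genes every papain library lay far above every naive library. Bgn (biglycan) was at 0 and 2 against 101 and 53 FPKM, Dpt (dermatopontin) at 0 and 1 against 61 and 46 FPKM, and Mfap4, a protein of elastic fibres, at 0 and 2 against 93 and 41 FPKM. Igfbp7, a secreted binding protein of insulin-like growth factors, was at 0 and 4 against 110 and 67 FPKM. Eln (elastin) and Col3a1 (type III collagen) were listed at 0 in both naive libraries and stood at 101 and 32 FPKM, and at 74 and 29 FPKM, in the CD11c- libraries (adjusted p = 0.0154 and 0.0099). Clec3b, the secreted protein tetranectin, was at 0 and 1 against 49 and 42 FPKM (adjusted p = 0.00296). Without CD11c- library 1 the calls of Mgp, Mfap4, Eln, Col3a1, Bgn, Dpt and Igfbp7 were lost, and without naive library 1 the same except Igfbp7. Without naive library 2 those of Mgp, Mfap4, Eln and Col3a1 were lost, and without CD11c- library 2 those of Mgp and Mfap4 (adjusted p up to 0.231 over these fits).

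Markers of fibroblasts rose as well. The list shares Dcn, Mgp, Bgn and Col3a1 with the genes above, so its count is not independent of them. Of the 10 fibroblast markers tested, 9 rose and none fell, against 1.87% of all genes, and their median difference was 5.11 against 0.21 for all genes; the lists were drawn up with results of these data known. Pdgfra, a growth factor receptor of fibroblasts, was not called, with 0 and 0 against 5 and 4 FPKM (adjusted p = 0.0715). The summed level of the list was 8 and 27 FPKM in the naive libraries, with Col3a1, Pdgfra, Fbln1 and Lum listed at 0 in both. It was 1212 and 951 FPKM in the CD11c- libraries and 2578 and 2463 FPKM in the CD11c+ libraries. Natural helper cell libraries held 493 and 353 FPKM without and 548 and 749 FPKM with papain, so matrix transcripts were low in the naive eosinophil libraries but not in naive libraries of the other sort. The part of other cells in the rises was not tested. In sorted bulk samples, fewer cells of a type and less RNA per cell cannot be told apart.

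**Figure D2:**
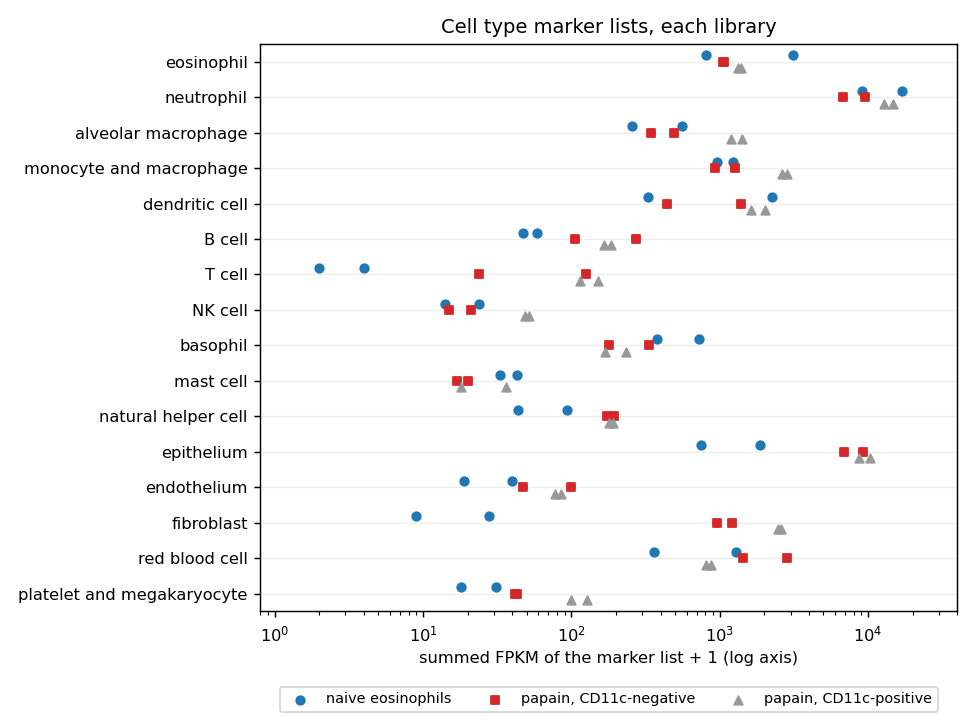
Summed FPKM of each cell type marker list plus 1 (log axis) in each library of naive (blue circles), CD11c- papain (red squares) and CD11c+ papain eosinophils (grey triangles). The fibroblast list lies at 8 and 27 FPKM in naive and at 951 to 1212 FPKM in CD11c- libraries, while the eosinophil list (806 and 3119 against 1071 and 1049 FPKM) overlaps between them.

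Of 15 epithelial markers 2 rose and none fell, against 1.87% and 0.372% of all genes, with a median difference of 2.56. Sftpa1, a surfactant protein of alveolar type II cells, was at 1 and 3 FPKM in naive and at 72 and 40 FPKM in CD11c- libraries (4.27 ± 0.63, adjusted p = 0.0108), and Sftpb was at 1 and 4 against 66 and 26 FPKM (adjusted p = 0.0256). Sftpc, the type II cell gene with the highest level, was at 9 and 15 against 1183 and 410 FPKM and was not called (adjusted p = 0.0724). Scgb1a1, the club cell secretory protein, was at 690 and 1771 against 5044 and 8407 FPKM (adjusted p = 0.373). Clca3, a secreted protein of goblet cells in allergic airways, was listed at 0 in both naive libraries and at 19 and 77 FPKM in CD11c- libraries (adjusted p = 0.034). The groups did not overlap in any of these genes. The list summed to 745 and 1858 FPKM in naive and to 6839 and 9216 FPKM in CD11c- libraries, with Foxj1 of ciliated cells at 0 in both naive libraries and at 2 FPKM in both CD11c- libraries. The calls of Sftpa1, Sftpb and Clca3 were lost without naive library 1 or CD11c- library 1, those of Sftpb and Clca3 also without naive library 2, and that of Clca3 also without CD11c- library 2 (adjusted p up to 0.22).

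**Figure D3:**
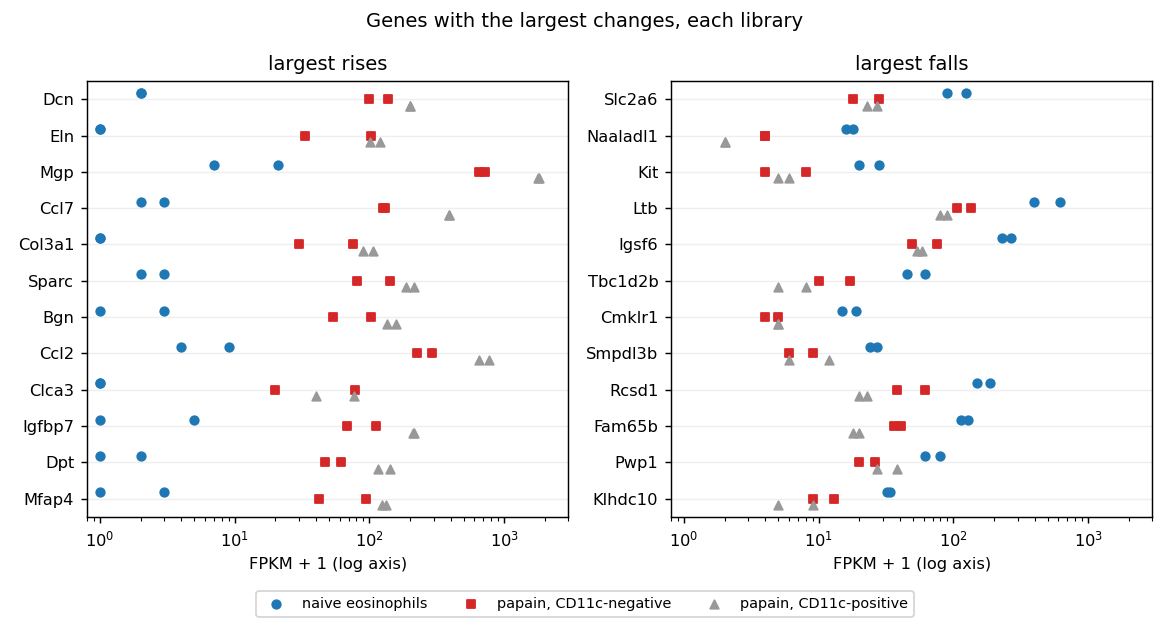
FPKM plus 1 (log axis) in each library for the 12 largest rises and 12 largest falls between naive (blue circles) and CD11c- papain eosinophils (red squares), with CD11c+ papain eosinophils (grey triangles) beside them. The groups do not overlap by the naming rule. CD11c+ libraries lie above both CD11c- libraries in 10 of the 12 rises and below both naive libraries in 12 of the 12 falls. The falls were chosen for high naive values, which favours the last count, and neither share over all genes was counted.

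Chemokines of the inflamed lung rose in 4 of 28 members tested, against 1.87% of all genes, with a list median of 0.50. Ccl2, the main attractant of inflammatory monocytes, was at 3 and 8 FPKM in naive and at 291 and 224 FPKM in CD11c- libraries (5.42 ± 0.80, adjusted p = 0.0113). Ccl7, which acts on the same receptor and on Ccr3 of eosinophils, was at 1 and 2 against 126 and 129 FPKM (5.71 ± 0.43, adjusted p = 0.00106). Cxcl1, a ligand of the neutrophil receptor Cxcr2, was at 16 and 7 against 345 and 309 FPKM (4.81 ± 0.62, adjusted p = 0.00654). All 3 were higher in every papain library than in any naive library. Cxcl12, a stromal chemokine, was listed at 0 in both naive libraries and at 7 and 5 FPKM in CD11c- libraries (adjusted p = 0.0148). The eotaxin gene Ccl11 was listed at 0 in naive and at 25 and 33 FPKM in CD11c- libraries without being called (adjusted p = 0.0759), and Ccl24 was at 0 against 1 and 2 FPKM. Fibroblast and epithelial marker sums moved with these chemokines, as given above. Of the 4 calls, Ccl7 was kept without each library in turn (adjusted p up to 0.0226), while Ccl2, Cxcl1 and Cxcl12 were lost without CD11c- library 1. Ccl2 and Cxcl12 were also lost without naive library 1 or CD11c- library 2, and Cxcl1 and Cxcl12 without naive library 2 (adjusted p up to 0.123).

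Among cytokines, Il5, Lif and Il33 rose out of 16 type 2 and growth factor cytokines tested, against 1.87% of all genes. Il5, the eosinophil growth factor, was listed at 0 in both naive libraries and stood at 25 and 15 FPKM in CD11c- libraries (adjusted p = 0.0069). Lif, a cytokine of the interleukin-6 family, was at 2 FPKM in both naive libraries and at 35 and 23 FPKM in CD11c- libraries (3.29 ± 0.33, adjusted p = 0.00294). Il33, an alarmin kept in the nucleus of epithelial and stromal cells, was at 0 in both naive and at 11 and 5 FPKM in CD11c- libraries (adjusted p = 0.0124). Il4 and Il13, the signature cytokines of type 2 immunity, were present in naive cells and overlapped between the groups. Il4 was at 126 and 110 FPKM in naive and at 95 and 114 FPKM in CD11c- libraries (adjusted p = 0.966), and Il13 at 37 and 25 against 26 and 27 FPKM (adjusted p = 1). Il6 was at 91 and 75 against 222 and 156 FPKM, with no overlap, and was not called (adjusted p = 0.11). The chemoattractant cytokine Il16 fell from 46 and 60 to 19 and 18 FPKM (-1.46 ± 0.24, adjusted p = 0.0193). Il1b, among the most abundant cytokines of these cells, was at 1690 and 1454 against 674 and 472 FPKM (adjusted p = 0.635). Il5, Il33 and Il16 lost their calls without naive library 1, naive library 2 or CD11c- library 1, and Il16 also without CD11c- library 2 (adjusted p up to 0.124).

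Il5 stood far higher in natural helper cells, at 501 and 2283 FPKM in their naive and 2379 and 2350 FPKM in their papain libraries. Of the other 11 natural helper cell markers none was called. They summed to 43 and 93 FPKM in naive and to 147 and 177 FPKM in CD11c- eosinophil libraries, most of it from Il1rl1, described below, without which the sums were 5 and 21 against 42 and 71 FPKM. Gata3, Icos, Rora, Thy1 and Ccr8 were at 0 in both naive libraries. In the CD11c- libraries Gata3, their defining transcription factor, was at 2 and 3 FPKM and Thy1, a surface protein used to sort them, at 5 and 12 FPKM. T cell markers summed to 3 and 1 FPKM in naive and to 23 and 125 FPKM in CD11c- libraries, and B cell markers to 58 and 46 against 104 and 272 FPKM. None of the T or B cell markers was called. The part of these cells in the Il5 values was not tested.

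**Figure D4:**
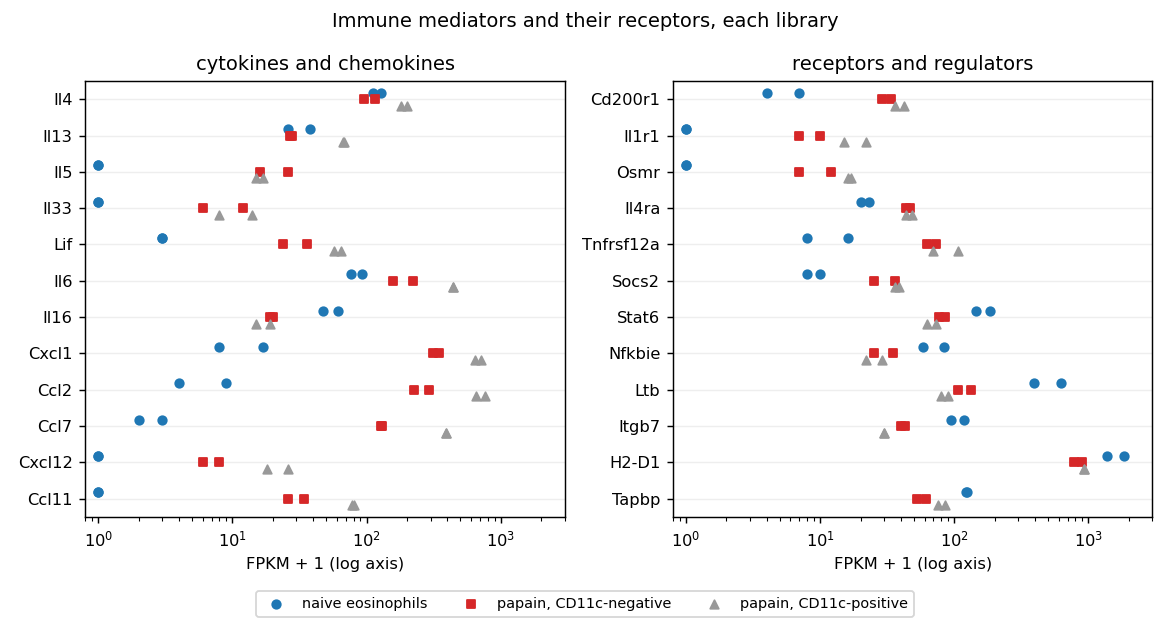
FPKM plus 1 (log axis) in each library for 12 cytokine and chemokine genes and 12 receptor and regulator genes, in naive (blue circles), CD11c- papain (red squares) and CD11c+ papain eosinophils (grey triangles). Il4 and Il13 overlap between naive and CD11c- libraries, Il5, Il33 and Cxcl12 are listed at 0 in naive libraries, and Ltb, Stat6, Itgb7 and H2-D1 are lower in CD11c- libraries.

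Several receptors rose with papain. Cd200r1, an inhibitory receptor for CD200, was at 3 and 6 FPKM in naive and at 28 and 33 FPKM in CD11c- libraries (2.57 ± 0.28, adjusted p = 0.00361), and kept its call without each library in turn. Natural helper cell libraries held Cd200r1 at 57 and 46 FPKM without and 44 and 43 FPKM with papain. Il1r1, the interleukin-1 receptor, and Osmr, the oncostatin M receptor, were listed at 0 in naive libraries and stood at 9 and 6 FPKM, and at 11 and 6 FPKM, in CD11c- libraries (adjusted p = 0.00482 and 0.0129). These were the 2 rises among 39 cytokine receptors tested, against 1.87% of all genes. Tnfrsf12a, the receptor of the cytokine TWEAK, was at 7 and 15 against 72 and 62 FPKM (2.58 ± 0.53, adjusted p = 0.0429). F2r, the thrombin receptor, which is activated by proteolysis, was at 1 and 1 against 12 and 7 FPKM (adjusted p = 0.0226). Cd34, a sialomucin of progenitors, stroma and eosinophils, was at 1 and 2 against 20 and 15 FPKM (2.90 ± 0.29, adjusted p = 0.00294). Every one of these 6 genes was higher in each papain library than in each naive library. Il1r1, Osmr, Tnfrsf12a and F2r lost their calls without naive library 1. The last 3 also lost them without naive library 2 or CD11c- library 1, and Tnfrsf12a and F2r without CD11c- library 2 (adjusted p up to 0.334).

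The receptors that define the eosinophil response to cytokines and eotaxins were not called. Il5ra, the interleukin-5 receptor, was at 14 and 16 FPKM in naive and at 9 and 9 FPKM in CD11c- libraries (adjusted p = 0.61), and Ccr3, the eotaxin receptor, at 192 and 229 against 154 and 148 FPKM (adjusted p = 0.729). Il4ra, the receptor chain shared by interleukin-4 and interleukin-13, was at 22 and 19 against 46 and 43 FPKM (adjusted p = 0.114), and Il1rl1, the interleukin-33 receptor, at 38 and 72 against 105 and 106 FPKM (adjusted p = 0.122). In each of the 4 the groups did not overlap, which groups of 2 libraries can also show without a difference. S1pr1, a receptor that guides exit from tissue, was at 2 and 3 against 13 and 21 FPKM (adjusted p = 0.0649).

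In cytokine signalling, 1 gene rose and 1 fell among 21 JAK-STAT feedback genes and STAT5 targets, against 1.87% and 0.372% of all genes. Socs2, an inhibitor induced by STAT5, was at 9 and 7 FPKM in naive and at 35 and 24 FPKM in CD11c- libraries (1.75 ± 0.24, adjusted p = 0.00857). Stat6, the transcription factor of the interleukin-4 receptor, was at 183 and 144 against 84 and 76 FPKM (-1.01 ± 0.15, adjusted p = 0.0122). Both separated the groups without overlap. The feedback inhibitor Socs3 was at 45 and 26 against 83 and 73 FPKM (adjusted p = 0.393). Without naive library 1 or CD11c- library 1 neither Socs2 nor Stat6 was called, nor was Socs2 without naive library 2 or Stat6 without CD11c- library 2 (adjusted p up to 0.109).

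Among 24 transcription factors of eosinophils, Xbp1 and Cebpd rose and none fell, against 1.87% and 0.372% of all genes. Cebpd, a factor of inflammatory gene expression, was at 3 and 5 FPKM in naive and at 22 and 17 FPKM in CD11c- libraries (2.05 ± 0.39, adjusted p = 0.0341). Sfpi1, which encodes the myeloid factor PU.1, was at 541 and 433 against 249 and 249 FPKM (adjusted p = 0.604), and Cebpe, required for granule formation, at 40 and 75 against 60 and 88 FPKM (adjusted p = 0.739). Of 32 immediate early genes 1 rose and none fell, against 1.87% and 0.372% of all genes. The rise was Maff, a small Maf protein, at 9 and 13 against 57 and 43 FPKM (2.09 ± 0.40, adjusted p = 0.035). Jun was at 8 and 18 against 50 and 43 FPKM (adjusted p = 0.114) and Myc at 4 and 8 against 20 and 18 FPKM (adjusted p = 0.105). Of 16 MAP kinase feedback genes 2 rose, against 1.87% of all genes. Errfi1, an inhibitor of epidermal growth factor receptors, was at 1 and 7 against 69 and 48 FPKM (3.87 ± 0.64, adjusted p = 0.0182). Dusp10, a phosphatase of p38 and JNK kinases, was listed at 0 in naive and at 6 and 10 FPKM in CD11c- libraries (adjusted p = 0.0177). All 4 calls, of Cebpd, Maff, Errfi1 and Dusp10, were lost without naive library 1 or either CD11c- library, and those other than Errfi1 also without naive library 2 (adjusted p up to 0.265).

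Of the 53 falls, 7 ended at 0 in both CD11c- libraries. All of these but Mir146b, described below, started from only 1 FPKM in both naive libraries, a log2 change of -1.0. Among the falls that did not end at 0, the largest change was that of Slc2a6. Slc2a6, a glucose transporter of the GLUT family, was at 122 and 88 FPKM in naive and at 27 and 17 FPKM in CD11c- libraries (-2.22 ± 0.27, adjusted p = 0.00559). Naaladl1, a peptidase, was at 17 and 15 against 3 and 3 FPKM (-2.08 ± 0.16, adjusted p = 0.00106) and kept its call without each library in turn. Kit, the stem cell factor receptor of progenitors and mast cells, was at 27 and 19 against 7 and 3 FPKM (-2.06 ± 0.31, adjusted p = 0.0122). No papain library reached the lower naive library in any of the 3. Igsf6, a member of the immunoglobulin superfamily, was at 228 and 265 against 74 and 48 FPKM, and Cmklr1, the chemerin receptor, at 14 and 18 against 4 and 3 FPKM. Rcsd1, a regulator of actin capping, was at 187 and 149 against 61 and 37 FPKM, and Fam65b, an inhibitor of RhoA, at 113 and 128 against 40 and 35 FPKM. The others of the 12 largest falls, Tbc1d2b, Smpdl3b, Pwp1 and Klhdc10 beside Ltb described below, had log2 changes between -2.05 and -1.61. Without naive library 1 all of these 12 but Naaladl1 lost their calls, and without any one of the other libraries all but Slc2a6, Naaladl1, Kit and Ltb did (adjusted p up to 0.296). The other 6 mast cell markers overlapped between the groups, with sums of 5 and 23 FPKM in naive and 9 and 16 FPKM in CD11c- libraries, none of those tested called, and Mrgprb1 and Mrgprb2 at 0 in all 4.

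Of 31 TNF superfamily ligands, receptors and regulators, 2 fell and 1 rose, against 0.372% and 1.87% of all genes. Ltb, which encodes lymphotoxin beta, a ligand that shapes lymphoid tissue, was at 620 and 393 FPKM in naive and at 133 and 105 FPKM in CD11c- libraries (-2.05 ± 0.26, adjusted p = 0.00631). Nfkbie, an inhibitor that holds NF-kB in the cytoplasm, was at 83 and 57 against 34 and 24 FPKM (-1.24 ± 0.26, adjusted p = 0.0458). The rise was Tnfrsf12a, given above. Fas, the death receptor, was at 560 and 432 against 244 and 183 FPKM (adjusted p = 0.0892). Without naive library 1 the adjusted p of Ltb was 0.0548; Nfkbie lost its call without any one library (adjusted p up to 0.343), and under 11 of the 15 alternatives.

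Promoter sequences of RefSeq (build GRCm38.p6, 250 bases before to 50 after the start) were searched for 4 motifs of transcription factors known from immune cells. The NF-kB motif (searched by its 10-base consensus on both strands) was present in the promoters of 10 rises and 6 falls. Cxcl1 was among these rises, and Ltb and Nfkbie were among these falls. The 30-base windows, with the motif in capitals and read on the strand of the gene (that of Ltb matches on the opposite strand), are:
Cxcl1, chr5:90891164-90891193, plus strand: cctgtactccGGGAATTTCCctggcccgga
Ltb, chr17:35194410-35194439, plus strand: aagggtgttcGGAAAGTCCCcgggcagggg
Nfkbie, chr17:45555584-45555613, plus strand: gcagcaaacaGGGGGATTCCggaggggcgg
Of the 267 rises 189 matched a promoter and 5.29% of these held the motif; of the 53 falls 41 matched and 14.6% did, namely 6 genes. In all 27025 promoters, 1 per gene, the share was 4.35%. The 6 falls were AU019990, H2-D1, Klhdc10, Ltb, Nfkbie and Smpdl3b, listed after they were found. The STAT5 motif TTCNNNGAA was held by 6.35% of rises and 7.32% of falls against 8.47% of all promoters, the STAT6 motif (1 base longer in its spacer) by 4.23% and 12.2% against 6.99%, and the AP-1 motif TGANTCA by 7.94% and 7.32% against 7.93%. The promoter of Cxcl1 holds a further NF-kB match that overlaps the one shown. A match describes letters in a window and not binding.

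A microRNA gene gave a fall to 0, named after its values were seen. Mir146b was at 60 and 93 FPKM in the naive eosinophil libraries and listed at 0 in all 13 other libraries, both CD11c- libraries among them (adjusted p = 4.62e-06). Groups listed at 0 throughout have no spread of their own, which lowers the error estimated for such a gene. miR-146b and its sister miR-146a dampen signalling from Toll-like and interleukin-1 receptors through the adaptors Traf6 and Irak1. Their mature strands, shown because the shared seed (bases 2 to 8, in capitals) gives both the same predicted targets, are, in RefSeq:
mmu-miR-146b-5p (chr19:46342790-46342811, GRCm38.p6, plus strand): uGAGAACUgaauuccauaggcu
mmu-miR-146a-5p (chr11:43374435-43374456, GRCm38.p6, minus strand): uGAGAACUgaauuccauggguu
The strands differ at 2 of 22 bases, both outside the seed. Traf6 was at 9 and 9 FPKM in naive and at 10 and 10 FPKM in CD11c- libraries (adjusted p = 0.868), and Irak1 at 31 and 28 against 30 and 31 FPKM (adjusted p = 1). The hairpin is 109 bases long, so a value per kilobase can rest on few fragments, and poly(A)-selected libraries do not measure the mature strand. Leaving out either naive library puts the gene below the filter, so it was not tested there. Over the other alternatives the adjusted p ran from 1.81e-06 to 0.0686, the last in a replicate block fit of these 4 libraries alone.

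Of 24 antigen presentation and costimulation genes, 2 fell and none rose, against 0.372% and 1.87% of all genes. H2-D1, a class I heavy chain, was at 1846 and 1379 FPKM in naive and at 889 and 777 FPKM in CD11c- libraries (-0.94 ± 0.19, adjusted p = 0.0402), and Tapbp (tapasin), which loads peptide onto it, at 124 and 121 against 61 and 52 FPKM (-1.11 ± 0.23, adjusted p = 0.0428). Another class I heavy chain, H2-K1, was at 945 and 686 against 478 and 566 FPKM and was not called (adjusted p = 0.208). Class I genes share long stretches of sequence, so the split of fragments between them is uncertain. MHC class II transcripts varied more within groups than between them, with H2-Ab1 at 61 and 467 FPKM in naive and at 94 and 352 FPKM in CD11c- libraries (adjusted p = 1). Cd274, the checkpoint ligand PD-L1, was at 100 and 72 against 54 and 22 FPKM (adjusted p = 0.188). H2-D1 and Tapbp were not called without any one of the 4 libraries, nor under quantile normalization, and H2-D1 not under median-ratio scaling (adjusted p up to 0.291 without a library).

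Of 27 adhesion molecules and integrins 1 fell and none rose, against 0.372% and 1.87% of all genes. Itgb7, the beta chain of the gut- and lung-homing integrin alpha4beta7, was at 117 and 94 FPKM in naive and at 42 and 39 FPKM in CD11c- libraries (-1.35 ± 0.28, adjusted p = 0.0437). Its partner Itga4 was at 105 and 119 against 37 and 26 FPKM, likewise without overlap, and was not called (adjusted p = 0.13). Vcam1, the endothelial and stromal ligand of alpha4 integrins, was at 3 and 8 against 50 and 30 FPKM (adjusted p = 0.224). Itgb7 lost its call under 10 of the 15 alternatives, without any one library among them (adjusted p up to 0.323).

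Tissue repair and remodelling genes held 6 rises and no fall among 35 tested, against 1.87% and 0.372% of all genes. Their median was 1.29 against 0.21 for all genes. Timp1, an inhibitor of metalloproteinases, was at 1 and 5 FPKM in naive and at 75 and 65 FPKM in CD11c- libraries (4.35 ± 0.85, adjusted p = 0.0377). Timp3 was at 0 and 2 against 27 and 16 FPKM and the gelatinase Mmp2 at 1 and 1 against 26 and 17 FPKM (adjusted p = 0.0146 and 0.0165). Ecm1, a secreted matrix protein, was at 1 and 2 against 22 and 17 FPKM, and Ctsl, the lysosomal protease cathepsin L, at 5 and 8 against 40 and 27 FPKM (adjusted p = 0.00665 and 0.0307). The remaining rise was Timp2. In contrast to Mmp2, the granulocyte gelatinase Mmp9 was at 86 and 61 against 39 and 36 FPKM (adjusted p = 0.344). Fibroblast marker sums moved with this list, as given above, and the list shares its matrix genes with stroma. Without naive library 1 or CD11c- library 1 none of Timp1, Timp3, Mmp2, Ecm1 and Ctsl was called. Without CD11c- library 2 all of these but Ecm1 lost their calls, and without naive library 2 Timp1, Mmp2 and Ctsl did (adjusted p up to 0.291).

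In metabolism, single genes moved, with 1 rise and no fall in each list counted here. The shares over all genes were 1.87% for rises and 0.372% for falls. Scd1, which desaturates fatty acids, was at 4 and 5 FPKM in naive and at 60 and 35 FPKM in CD11c- libraries (3.10 ± 0.37, adjusted p = 0.00511), the only call among 29 cholesterol and lipid genes. Hk2, a hexokinase that starts glycolysis, was at 8 and 12 against 24 and 22 FPKM (1.15 ± 0.24, adjusted p = 0.0437), the only call among 20 glycolysis genes. A further 2 glycolytic enzymes had no overlap and no call, Pgam1 at 22 and 40 against 68 and 70 FPKM and Tpi1 at 15 and 21 against 41 and 42 FPKM (adjusted p = 0.0905 and 0.0962). Ptgs1, the constitutive cyclooxygenase, rose from 1 and 1 to 9 and 7 FPKM (2.16 ± 0.40, adjusted p = 0.029), the only call among 24 eicosanoid genes. Alox15, the lipoxygenase of eosinophils, was at 169 and 130 against 85 and 83 FPKM (adjusted p = 0.37). Scd1 lost its call without naive library 1 (adjusted p = 0.061), and Hk2 and Ptgs1 without any one library (adjusted p up to 0.323). Xbp1 was the only call among 27 genes of the unfolded protein response; its targets Dnajb9 and Pdia4 were at 10 and 12 against 25 and 20 FPKM, and at 4 and 6 against 16 and 14 FPKM (adjusted p = 0.138 and 0.271).

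None of the 12 eosinophil granule genes tested was called in limma. Their median difference of -1.44 rested on naive library 2: it was -0.10 without that library and -2.78 without naive library 1. Prg3 was at 10 and 63 FPKM in naive and at 12 and 6 FPKM in CD11c- libraries, Ear1 at 35 and 289 against 44 and 17 FPKM, and Ear2 at 39 and 206 against 36 and 21 FPKM (adjusted p between 0.473 and 0.753). In each of the 3, the higher naive value belongs to naive library 2. Ear genes are near-identical copies, so their separate levels are uncertain. Srgn, the granule proteoglycan serglycin, was among the most abundant transcripts, at 8283 and 7104 against 6029 and 5952 FPKM (adjusted p = 0.579). Of 20 eosinophil surface and effector genes none was called, with a median of -0.38. Lung eosinophil subset genes held 1 rise, Tgfbr3, and no fall among 17, against 1.87% and 0.372% of all genes. Their median was -0.49. Fas and Cd274 of this list, given above, were lower in CD11c- libraries and not called. Cd101, a marker of inflammatory lung eosinophils, was at 7 and 12 against 20 and 27 FPKM (adjusted p = 0.0684). Anxa1, an anti-inflammatory phospholipid-binding protein, was at 41 and 62 against 204 and 93 FPKM (adjusted p = 0.253). In both genes the groups did not overlap.

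Genes known to answer interleukin-4 and interleukin-13 had a list median of 0.82, or 0.38 without naive library 1, with none of 24 called. Retnla, a secreted resistin-like protein of type 2 inflammation, was at 60 and 179 FPKM in naive and at 853 and 1725 FPKM in CD11c- libraries (3.53 ± 1.57, adjusted p = 0.348). Arg1 was listed at 0 in naive and at 8 in both CD11c- libraries (adjusted p = 0.189). Chi3l4, a chitinase-like protein with a near-identical copy, Chi3l3, was at 12 and 16 against 58 and 105 FPKM (adjusted p = 0.472). Values were apart in all 3, and SEs over the 15 libraries were large. Ccl17 and Ccl22 were high only in naive library 2 of these 4, at 17 and 386 against 18 and 18 FPKM, and at 6 and 189 against 5 and 5 FPKM (adjusted p = 0.695 and 0.557).

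**Figure D5:**
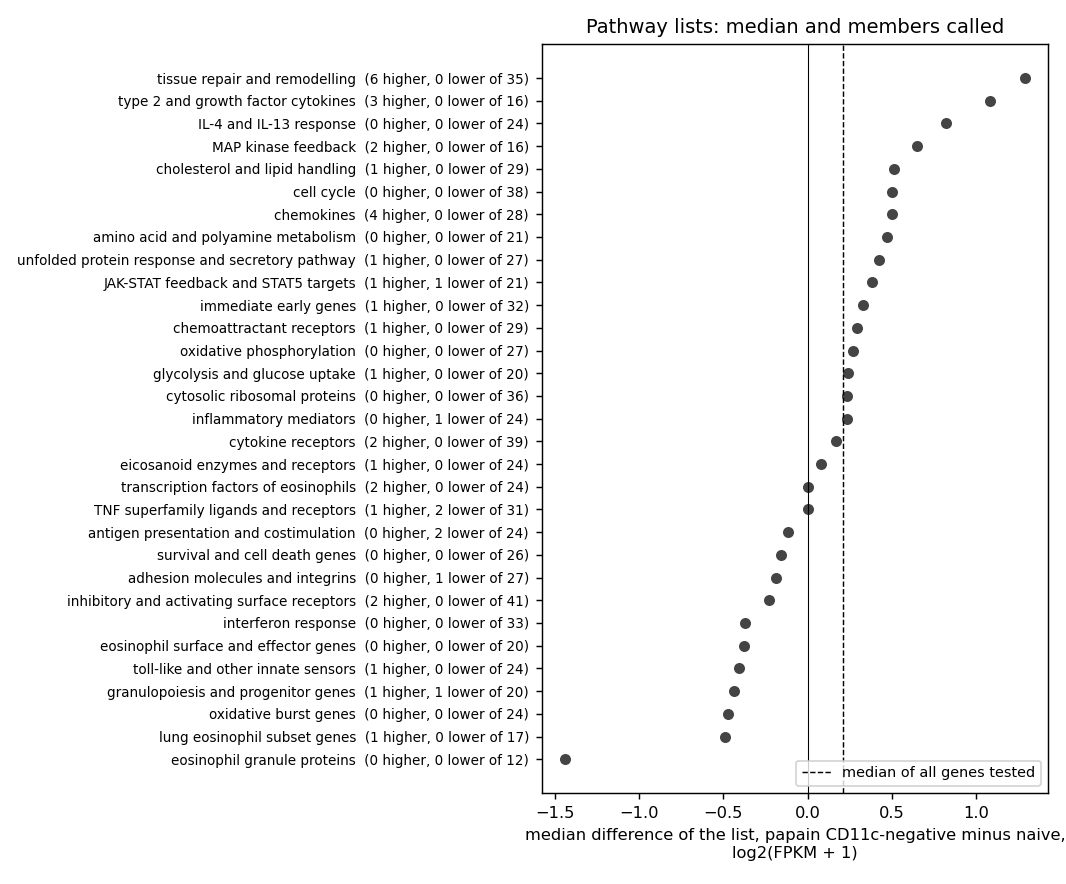
Median difference of the tested members of each pathway list (dot, log2(FPKM + 1)), with the number of members called higher and lower beside its name. Tissue repair (1.29) and type 2 cytokines (1.08) lie farthest above the median of all genes (dashed, 0.21) and eosinophil granule proteins (-1.44, but -0.10 without naive library 2) farthest below it.

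The other lists held few or no calls. No member was called among 33 interferon response genes (median -0.37), 24 oxidative burst genes (-0.47), 26 survival and cell death genes (-0.16), 38 cell cycle genes (0.50), 27 oxidative phosphorylation genes (0.27), 36 cytosolic ribosomal proteins (0.23) and 21 amino acid and polyamine genes (0.47). With 1 library left out, the medians of the cell cycle list ran from 0.18 to 1.04 and those of the amino acid and polyamine list from 0.10 to 0.95. The antiviral gene Isg15 was at 80 and 44 FPKM in naive and at 30 and 16 FPKM in CD11c- libraries (adjusted p = 0.441). Odc1, the first enzyme of polyamine synthesis, was at 36 and 48 against 110 and 132 FPKM (adjusted p = 0.135). Neither gene's groups overlapped. Nod1, a sensor of bacterial cell wall, was at 30 and 23 against 10 and 7 FPKM, just short of a call (adjusted p = 0.0505).

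The CD11c- and CD11c+ cells of papain mice differed in few calls. Limma called 8 genes between the gates, 0.0561% of those tested, with 4 in each direction (0.0281% each), and 1283 had an unadjusted p below 0.05. Of these 8, Mir139 was listed at 0 in CD11c- and at 705 and 11202 FPKM in CD11c+ libraries, and the other 7 reached at most 3 FPKM. None of the 239 genes named by the rule was called between the gates (smallest adjusted p = 0.122), and 27 had an unadjusted p below 0.05. The number of calls moved with CD11c+ library 1: without it 498 genes were called. Of the 267 rises, 234 had a higher mean in the CD11c+ than in the CD11c- libraries. The share over all genes tested was not counted. The median of CD11c- minus CD11c+ over all genes tested was -0.002 in log2(FPKM + 1). Ccl7 was at 390 and 392 FPKM, Ccl2 at 654 and 766 FPKM, Cxcl1 at 709 and 643 FPKM and Il6 at 441 and 440 FPKM in CD11c+ libraries, each above both CD11c- libraries. Il4 was at 179 and 200 FPKM and Il13 at 66 and 67 FPKM in CD11c+ libraries, against 95 and 114 FPKM and 26 and 27 FPKM in CD11c- libraries (adjusted p = 0.577 and 0.551). Both gates share the naive libraries as control, so their responses are given only side by side.

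The eosinophil response was also set against that of natural helper cells, which have their own naive libraries. The difference of the 2 responses was called for 172 genes, 1.21% of those tested, with 85 in favour of CD11c- eosinophils (0.596%) and 87 against (0.61%). Ccl7 was at 58 and 62 FPKM in naive and at 83 and 104 FPKM in papain natural helper cells, against the rise from 1 and 2 to 126 and 129 FPKM in eosinophils (difference 5.09 ± 0.61, adjusted p = 0.0133). Slc2a6 was at 2 and 2 against 6 and 7 FPKM in natural helper cells, while it fell in eosinophils (-3.54 ± 0.38, adjusted p = 0.0091). The count fell to as few as 12 when 1 library was left out, here papain natural helper library 1.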

How the data were processed

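Poly(A) RNA of sorted lung cells was sequenced in 15 libraries of 8 groups. The deposited table gives 1 score per gene and library, whole-number FPKM by its values; the submitters' processing notes name TopHat 1.4.0, Cufflinks 1.3.0 and mm9, and give no annotation, filter or rounding step. It holds 21110 gene rows and no read counts, so depth is unknown. Commas were removed from 1008 cells and 3 cells between 0 and 1 were set to 0. RefSeq sequences are of GRCm38.p6, another build, and were matched by symbol only. A gene entered when 2 or more libraries reached 1 FPKM, and the 14257 such genes were fitted as log2(FPKM + 1) in limma 3.58.1 (R 4.3.3), with 1 coefficient per group over all 15 libraries (7 residual degrees of freedom), a trended eBayes step and two-sided p-values, adjusted by Benjamini and Hochberg; the threshold was 0.05. The fit was also run on simulated data with known changes, drawn around a common mean per gene for all groups. That simulation lacks the differences between cell types, so it cannot show how well the calls hold in these libraries.

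The members, the 31 pathway and 16 marker lists, tests and alternatives were chosen with earlier results of these data known. The lists are described by counts and medians with no set test. Of 1011 list entries 1001 were in the table. Named by rule were up to 12 rises and 12 falls (called, mean of 10 FPKM or more in the higher group, no overlap), up to 5 members per pathway list from a mean of 5 FPKM, called members first, eosinophil markers, other markers from 20 FPKM, fixed genes, and up to 5 genes per direction for the response difference, 239 in all. Unnamed gene models, small RNA genes and symbols turned into dates were passed over; other genes are said to be chosen after their values were seen. Timp2, Tgfbr3, Fbln1, Lum, Pdgfra, Foxj1, Gata3, Icos, Rora, Thy1, Mrgprb1, Mrgprb2, Srgn and H2-K1 are given only as list members. Same-numbered replicates were not treated as pairs. List medians with 1 library left out and marker sums without single members were added after seeing the data.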

Additional observations from a re-analysis of the deposited data

Results flagged for a closer look

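The papain responses of CD11c- eosinophils and natural helper cells differed by a limma test of the difference itself for 172 genes. Among the named ones, 5 had the higher response in eosinophils. Clec3b differed by 5.65 on the log2(FPKM + 1) scale, with 58 and 61 FPKM in naive and 37 and 40 FPKM in papain natural helper cells. Dcn differed by 5.58, with 232 and 97 against 200 and 170 FPKM in natural helper cells, and Sparc by 5.22, with 40 and 68 against 48 and 79 FPKM. Ccl7 differed by 5.09. Ly6d, a small surface protein, differed by 5.02: it was at 9 and 7 against 18 and 25 FPKM in eosinophils and at 16 and 19 against 0 and 1 FPKM in natural helper cells.

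The other 5 had the lower response in eosinophils. Il1r2, the decoy receptor of interleukin-1, differed by -4.40, at 248 and 77 against 100 and 94 FPKM in eosinophils and at 6 and 2 against 66 and 68 FPKM in natural helper cells. Ttc39c differed by -4.18, Adap1 by -3.80, Slc2a6 by -3.54 and the transcription factor Zeb2 by -3.39. In eosinophils Zeb2 was at 78 and 67 against 34 and 17 FPKM and in natural helper cells at 2 and 1 against 10 and 6 FPKM. Each of these 10 genes had an adjusted p below the threshold, between 0.0091 and 0.0325.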

How the results depend on the processing

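Against 320 called genes (267 higher, 53 lower), a pseudocount of 5 gave 184 (125 higher), median-ratio scaling 97 lower, and a fit of the 4 libraries alone 1114 (992 higher, 122 lower). Leaving out 1 library gave 44 to 161 called, 34 to 144 higher and 10 to 23 lower. Same-numbered libraries did not deviate together (correlation 0.001), which cannot show whether they share an animal, a sort or a run. With the replicate block the 15-library fit called 231 genes, 226 of them shared with the 320, and 12 named genes lost the call; the replicate block on the 4 libraries alone, with 1 residual degree of freedom, called 640 (600 higher).

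Between the CD11c gates, against 8 genes, counts were 14 and 3 with pseudocounts of 0.5 and 5, 13 without a filter, 1 with a filter of 5 FPKM, 1 each with median-ratio scaling and quantile normalization, 2 without small RNA genes in the totals, 5 in the 4 libraries alone and 2 without trend. With the replicate block they were 2, and 0 in the 4 libraries alone by limma. Leaving out 1 library gave 2 to 498.

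For the response difference, against 172 genes, counts were 114 with a pseudocount of 5, 95 with the filter of 5 FPKM, 81 and 76 with median-ratio scaling and quantile normalization, 62 without small RNA genes, 819 in the groups compared alone and 53 without trend. With the replicate block they were 105, and 571 in the groups compared alone. Leaving out 1 library gave 12 to 152. The cause of these shifts was not tested. No called gene named in the text changed direction. Of 47 list medians 8 changed sign over the scalings, among them chemoattractant receptors (0.29, and -0.13 with quantile normalization), cytokine receptors (0.17, and -0.06 with median-ratio scaling) and eicosanoid genes (0.08, and -0.21 with quantile normalization). Whole-number FPKM carries no depth, so differences of a few FPKM could not be weighed against counting error.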
